A study of Homo sapiens with 12 samples.

Results

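The respiratory chain subunits are the proteins of complexes I to IV of the mitochondrial electron transport chain and of ATP synthase (complex V). Their RNA was followed in cells made from H7, a human embryonic stem cell line, on the way to cardiomyocytes. Members were chosen by symbol: MT-ND, MT-CO, MT-CYB and MT-ATP genes, NDUFA, NDUFB, NDUFC, NDUFS and NDUFV with a digit, SDHA to SDHD, symbols starting with UQCR, CYC1, COX4 to COX8, and symbols starting with ATP5. This gave 97 of 17096 listed genes, after 5 pseudogenes were left out. Of the 97, 13 are encoded by mitochondrial DNA and 82 by nuclear genes, and 2 are antisense RNAs (NDUFB2-AS1 and NDUFA6-AS1) that are not counted as subunits. Complex I has 38 nuclear members, complex II 4, complex III 10, complex IV 13 and complex V 17. The mitochondrial members number 7 in complex I, 1 in complex III, 3 in complex IV and 2 in complex V. Complexes follow the symbols, so NDUFA4, now known as a complex IV subunit, stands under complex I, and ATP5S and ATP5SL, which are not core subunits, stand under complex V. NDUFAB1 and cytochrome c (CYCS) lie outside the rule, and COX4I2, COX6A2 and COX7B2 are not among the listed symbols. All 17096 listed genes had values above 0 in all 12 libraries. The list, and so the shares of all genes below, hold no gene at 0 in any library.

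There were 6 groups of 2 libraries: wild type and E2A-/- cells on day 3, labelled cardiac mesoderm, and on days 7 and 15, labelled cardiomyocytes. All carry the H7 background. E2A is the TCF3 gene, whose products E12 and E47 are bHLH transcription factors that bind E-box DNA. The labels do not say that replicates came from separate cultures or how many knockout clones were used, so the p-values below reflect just the variation among these libraries, which may be technical. TCF3 RNA did not pass as lower in the knockout-labelled libraries on any day, and it passed as higher there on day 15. It was 179.5 and 149 FPKM against 146 and 148 on day 3, 135 and 138 FPKM against 179.9 and 172 on day 7 and 74.4 and 98.2 FPKM against 169.7 and 108 on day 15, with limma log2 changes of −0.15, 0.36 and 0.66 (adjusted p = 0.618, 0.159 and 0.0234). A total per gene does not show whether the transcript is intact, and directions below are those of the labels.

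Complex I (NADH dehydrogenase) and complex II (succinate dehydrogenase) feed electrons to ubiquinone, complex III passes them to cytochrome c, complex IV (cytochrome c oxidase) hands them to oxygen, and ATP synthase uses the proton gradient that results. All but complex II are built from proteins of both genomes: the mitochondrial mRNAs are cut from long shared transcripts, and the nuclear subunits are imported from the cytosol. Heart muscle is rich in mitochondria, and the transcription factors NRF1 and GABPA (NRF2) are known to bind the promoters of many nuclear subunit genes.

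The promoters of 4 nuclear members are shown because these genes were lower in the knockout-labelled libraries on all 3 days and their promoters hold NRF1 or GABPA letters. They were chosen after their values were seen. Each runs 5′ to 3′ from 250 bases before to 50 after the transcription start in RefSeq (GRCh38.p14). Capitals mark the NRF1 motif GCGCATGCGC and the GABPA core CCGGAAG, searched on both strands. ATP5C1 encodes the gamma subunit in the rotor stalk of ATP synthase (chr10:7787927-7788226, plus strand). NDUFA8 encodes an accessory subunit of complex I (chr9:122159730-122160029, minus strand). COX5B encodes a subunit of complex IV (chr2:97645812-97646111, plus strand). UQCRQ encodes a small subunit of complex III (chr5:132866392-132866691, plus strand).
ATP5C1: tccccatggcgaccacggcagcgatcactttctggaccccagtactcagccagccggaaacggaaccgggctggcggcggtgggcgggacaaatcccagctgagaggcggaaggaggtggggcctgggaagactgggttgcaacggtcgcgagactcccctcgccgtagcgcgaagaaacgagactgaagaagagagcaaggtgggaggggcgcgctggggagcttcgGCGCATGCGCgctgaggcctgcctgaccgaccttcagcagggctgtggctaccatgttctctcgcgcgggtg
NDUFA8: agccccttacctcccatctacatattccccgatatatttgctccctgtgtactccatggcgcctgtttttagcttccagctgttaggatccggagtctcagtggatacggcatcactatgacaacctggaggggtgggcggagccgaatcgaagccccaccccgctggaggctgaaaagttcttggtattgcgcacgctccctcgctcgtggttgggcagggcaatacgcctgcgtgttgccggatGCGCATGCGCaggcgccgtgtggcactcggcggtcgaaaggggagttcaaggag
COX5B: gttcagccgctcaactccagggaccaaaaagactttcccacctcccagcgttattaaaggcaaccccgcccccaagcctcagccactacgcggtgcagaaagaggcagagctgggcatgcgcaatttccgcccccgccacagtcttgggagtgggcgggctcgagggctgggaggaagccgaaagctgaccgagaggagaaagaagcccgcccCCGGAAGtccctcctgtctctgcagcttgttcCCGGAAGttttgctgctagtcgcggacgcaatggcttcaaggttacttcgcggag
UQCRQ: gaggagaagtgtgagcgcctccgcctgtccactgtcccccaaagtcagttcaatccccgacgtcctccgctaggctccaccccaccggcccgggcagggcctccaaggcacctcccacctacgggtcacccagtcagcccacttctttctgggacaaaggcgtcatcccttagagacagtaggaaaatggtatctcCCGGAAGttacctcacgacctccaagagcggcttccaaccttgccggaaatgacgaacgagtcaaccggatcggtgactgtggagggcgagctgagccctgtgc

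Of the 82 nuclear members, 66 had a promoter in the table. The NRF1 letters were in 4 of these (6.06%), against 1.24% of all 35116 promoters of the same length. The GABPA core was in 19 (28.8%), against 10.3% of all. The letters CAGGTG, an E-box that E proteins prefer, were in 18.2% of member promoters and 20.6% of all promoters, and CAGCTG was in 18.2% and 17.9%. Both are also counted within the general E-box CANNTG, found in 60.6% of member promoters and 68.7% of all. Of the 20 nuclear members lower on all 3 days, 14 had a promoter in the table and 10 of these held NRF1 or GABPA letters, as did 22 of the 66. The 66 include those 14, and the difference was not tested. A match of letters is not a bound site.

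Values are FPKM, fragments scaled to gene length and library total, and log2 changes are differences between group means of log2(FPKM + 1), knockout-labelled minus wild type. Where values are set against each other, wild type comes first, and gene positions are those of GRCh38. The 15 MT genes (13 subunits and both ribosomal RNAs) took between 8.14% and 26.2% of a library's summed FPKM, so all other genes are diluted to differing degrees. Main results are therefore also given on values scaled to the sum over genes outside MT, which shifts log2 ratios between genotypes up by 0.18 on day 3, 0.21 on day 7 and 0.00 on day 15. The summed FPKM itself ran from 577716 to 734958 over the libraries, so these shifts hold differences in that sum as well as in the MT share. On day 15 the MT share was 26.1% and 26.2% against 13.9% and 14.3%, with sums of 683169 and 700622 against 608845 and 577716. Genes at low FPKM shift less because of the added 1. Markers of cell type bear on the labels. Summed FPKM of 6 cardiomyocyte genes lay at 4.14 to 7.63 on day 3. On that day the sums of 3 mesoderm and primitive streak genes were 582 and 577 against 162 and 144. Those of 2 measured endoderm genes (of 3) were 126 and 130 against 31.7 and 35.5. The neural sums were 269 and 266 against 402 and 401, though TUBB3 among them had the opposite order (220 and 219 against 148 and 163). On day 7 the cardiomyocyte sums were 6082 and 6079 in wild type against 1154 and 1005 in knockout-labelled libraries. They were 8878 and 9822 against 3656 and 2948 on day 15. MYL7, an atrial myosin light chain, made up most of the day 15 sum in wild type (5961 and 6584 FPKM against 1350 and 1204). The 6 genes did not all share that order: MYH6, a myosin heavy chain, had 632 and 702 FPKM against 959 and 786 on day 15, and the transcription factor gene NKX2-5 had 123 and 149 FPKM against 155 and 131, with the genotypes overlapping. The sums of 3 smooth muscle genes were 957 and 988 against 155 and 138 on day 7, and those of 3 measured neural genes (of 4) were 96.1 and 102 against 257 and 268. The neural genes did not all share that order. SOX2 had 21.0 and 21.2 FPKM against 153 and 157, and SOX21 had 0.595 and 0.877 against 35.7 and 38.3. TUBB3 had the opposite order, 74.5 and 79.7 FPKM against 68.6 and 72.5. In bulk RNA, fewer cells of a type and less RNA per cell cannot be told apart, and the part of these markers in the results below was not tested.

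Mitochondrial subunit RNA dipped on day 7 and was highest on day 15 in wild type, while in knockout-labelled libraries it was level until day 7 and lower on day 15. The 13 mitochondrial subunits made up 13.5% and 12.5% of summed FPKM in wild type on day 3, then 6.02% and 5.80%, then 21.5% and 21.97%. Knockout-labelled libraries had 15.7% and 14.1%, then 17.5% and 15.4%, then 11.8% and 10.8%. Both knockout-labelled libraries stood above wild type on days 3 and 7 and below it on day 15.

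The nuclear subunits took another course. Their share of the summed FPKM outside MT genes was 1.299% and 1.26% in wild type on day 3, then 1.64% and 1.69%, then 2.19% and 2.25%. Knockout-labelled libraries had 1.11% and 1.19%, then 1.08% and 1.13%, then 1.35% and 1.497%. Wild type was higher on each day, with no overlap. The ratio of summed mitochondrial to summed nuclear FPKM, which no scaling of a library alters, was 12.5 and 11.8 in wild type on day 3, then 4.004 and 3.73, then 13.3 and 13.2. For knockout-labelled libraries the ratio was 17.4 and 14.4, then 20.2 and 16.8, then 10.2 and 8.45. The ratio was higher than in wild type on days 3 and 7 and lower on day 15.

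**Figure D1:**
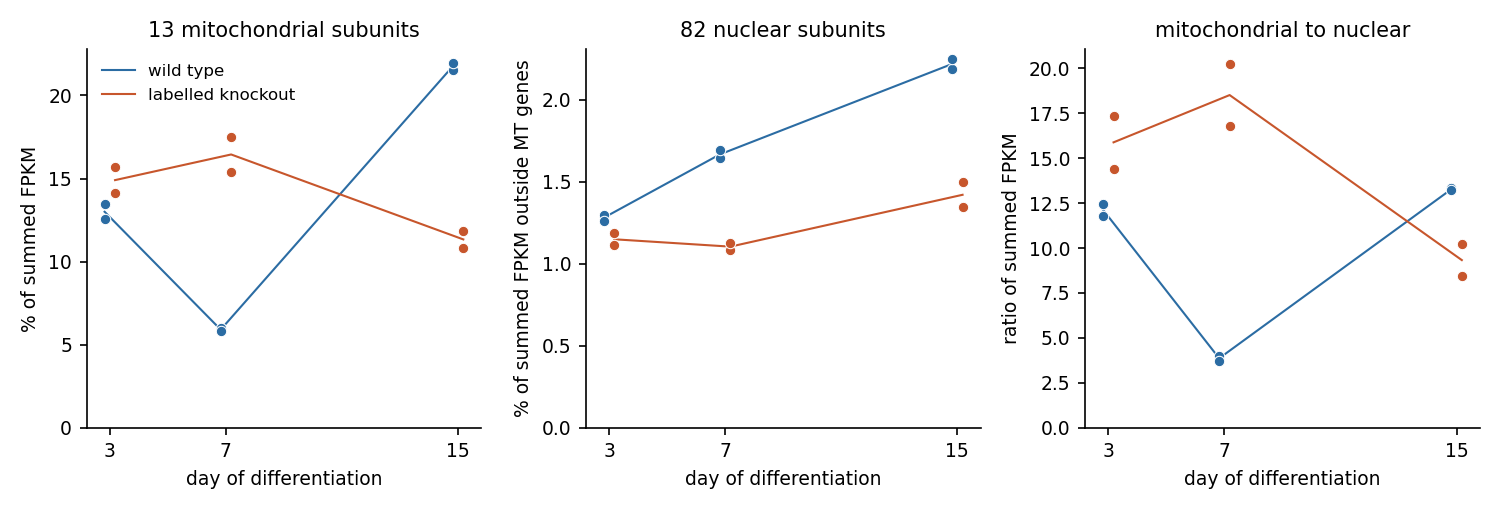
Share of the 13 mitochondrial subunits in summed FPKM, share of the 82 nuclear subunits in the sum outside MT genes, and the ratio of both sums, by day of differentiation. Each point is 1 library and lines join group means. In wild type the mitochondrial share dips on day 7 (6.02% and 5.80%) while the nuclear share climbs to 2.19% and 2.25% on day 15.

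On day 7, 13 of the 13 mitochondrial subunits were higher in the knockout-labelled libraries, where 22.1% of all 16295 genes tested were higher and 19.9% lower. Their log2 changes ran from 0.98 to 2.34 with a median of 1.59, against 0.06 over all genes tested. On day 15, 13 of 13 were lower, where 16.2% of genes were lower and 18.9% higher, and the median was −1.14 against 0.03. On day 3, 2 were higher and 1 lower, where 9.51% of genes were higher and 14.1% lower. After scaling to the sum outside MT genes the counts were again 13 higher on day 7 and 13 lower on day 15. On that scale 4 were higher and 1 lower on day 3.

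Complex I subunits of the mitochondrial genome form its proton-pumping membrane arm. MT-ND1 had 3488 and 3547 FPKM in wild type on day 3, 1020 and 1077 on day 7 and 5141 and 5137 on day 15. Knockout-labelled libraries had 3126 and 2928, then 3365 and 3346, then 2112 and 1823. The genotypes did not overlap on any day, and wild type was the lower on day 7 and the higher on days 3 and 15. The log2 change was −0.22 ± 0.11 (SE) on day 3 (limma adjusted p = 0.171), 1.68 ± 0.11 on day 7 (adjusted p = 3.16e-06) and −1.39 ± 0.11 on day 15 (adjusted p = 1.32e-05).

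MT-ND4L had the largest log2 change of the 13 on day 7, with 309 and 315 FPKM against 1748 and 1426 in knockout-labelled libraries (2.34 ± 0.18, limma adjusted p = 9.34e-06). Its gene (chrM:10470-10766, plus strand) shares 7 bases with MT-ND4, with which it stays joined in 1 mRNA. The gene is only 297 bases long. Low values of other genes pointed to 240 to 280 bases being taken off gene lengths in the day 7 libraries. The FPKM of MT-ND4L thus depends strongly on that number, as does its rank. MT-ND4 had 1939 and 1968 FPKM against 5355 and 4526 on that day (1.33 ± 0.15, limma adjusted p = 8.98e-05). For both genes the genotypes stood apart on day 7. MT-ND3 had the smallest change of the 13 on day 7 (2250 and 2295 FPKM against 4164 and 4833, 0.98 ± 0.15, limma adjusted p = 5.87e-04) and was the only one lower on day 3 (8055 and 7548 FPKM against 5439 and 4498, −0.66 ± 0.15, adjusted p = 0.0107). The day 3 call of MT-ND3 was lost when the trend on transcript length was removed. MT-ND5 (2379 and 2254 FPKM against 4081 and 3287) and MT-ND6 (6414 and 6209 FPKM against 10460 and 9320) were the members higher on day 3, by 0.66 ± 0.13 and 0.65 ± 0.14 (limma adjusted p = 0.00485 and 0.00723). MT-ND2, another membrane arm subunit, had 754 and 778 FPKM against 2265 and 2336 on day 7 and 3928 and 3716 FPKM against 1146 and 1471 on day 15, log2 changes of 1.59 ± 0.12 and −1.56 ± 0.12. It too changed order between those days.

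MT-CYB, the only mitochondrial subunit of complex III (chrM:14747-15887, plus strand), had the steepest course in wild type. It had 2288 and 2333 FPKM on day 3, 543 and 537 on day 7 and 4281 and 5414 on day 15, log2 changes of −2.10 ± 0.14 and 3.15 ± 0.14 (limma adjusted p = 9.22e-07 and 1.90e-07). Knockout-labelled libraries had 2089 and 1701, then 1886 and 1752, then 2020 and 1853. Neither step passed there, with log2 changes of −0.05 ± 0.14 and 0.09 ± 0.14 (adjusted p = 0.815 and 0.661).

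MT-CO1 to MT-CO3 form the catalytic core of complex IV. MT-CO1 had 9790 and 9602 FPKM in wild type on day 3, 5274 and 5203 on day 7 and 13160 and 12982 on day 15. Knockout-labelled libraries had 11520 and 9151, then 12695 and 10094, then 7320 and 5763. Genotypes overlapped on day 3 and stood apart on the later days, with log2 changes of 1.11 ± 0.17 and −1.01 ± 0.17 (limma adjusted p = 4.88e-04 and 0.00111). MT-CO2, which takes up the electrons from cytochrome c, had the largest fall of the 13 on day 15 (7012 and 7317 FPKM against 2425 and 2389, −1.57 ± 0.11, limma adjusted p = 9.16e-06). MT-CO3 had 2667 and 2817 FPKM against 6409 and 5673 on day 7 and 7920 and 7529 FPKM against 4065 and 3410 on day 15.

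MT-ATP6, part of the proton channel of ATP synthase, had 2942 and 2912 FPKM against 7537 and 8612 on day 7 and 14919 and 14762 FPKM against 4541 and 6493 on day 15. Wild type was the lower on day 7 and the higher on day 15, by log2 changes of 1.46 ± 0.18 and −1.45 ± 0.18 (limma adjusted p = 1.37e-04 and 2.08e-04). MT-ATP8, which lies on the same mRNA and shares 46 of its 207 bases with MT-ATP6, had 12729 and 63414 FPKM as its lowest and highest values over the 12 libraries, and MT-ATP6 had 2912 and 14919. MT-ATP8 alone gave between 1.99% and 9.05% of summed FPKM. Low values of other genes lay near whole fragments only when 200 to 280 bases were taken off each gene's length, and that number differed between libraries, so the values of a gene this short depend strongly on it. With MT-ATP8 left out, the 12 other mitochondrial subunits took 3.93% and 3.89% in wild type on day 7 against 10.9% and 10.5% in knockout-labelled libraries. On day 15 they took 14.96% and 14.2% against 7.34% and 7.09%, the same order as with it.

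**Figure D2:**
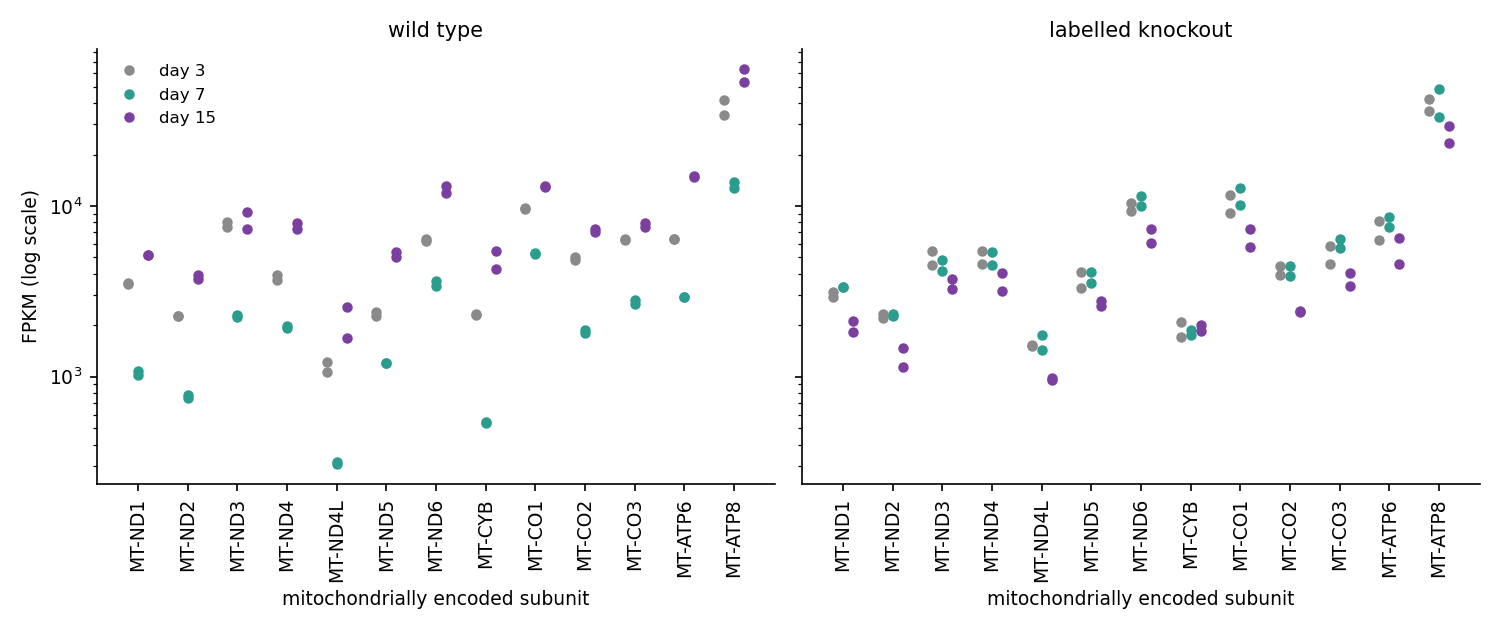
FPKM (log scale) of the 13 mitochondrially encoded subunits in each of the 12 libraries, by genotype and day. In wild type the mean of day 7 is the lowest for all 13 genes, while in knockout-labelled libraries that of day 15 is the lowest for all but MT-CYB.

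Over time in wild type, all 13 fell from day 3 to day 7, where 22.6% of genes fell and 21.1% rose. Their log2 changes ran from −2.10 (MT-CYB) to −0.84 (MT-ND6), with a median of −1.42. From day 7 to day 15 all 13 rose, by 1.32 (MT-CO1) to 3.15 (MT-CYB) with a median of 2.12, where 25.5% of genes rose and 26.8% fell. In knockout-labelled libraries none of the 13 passed limma's test between days 3 and 7, none had an unadjusted p under 0.05, and log2 changes lay between −0.14 and 0.23, where 17.3% of genes rose and 11.4% fell. From day 7 to day 15, 10 fell and none rose, where 15.1% of genes fell and 13.3% rose, and 6 fell without replicate 1 of the knockout-labelled day 7 group. A fit on the compared groups only called 4. In the main fit, MT-CYB, MT-ND3 and MT-ATP8 were those that did not pass.

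The genotype effect itself moved up between days 3 and 7 for 13 of 13, with a median of 1.43, where 11.3% of genes moved up and 8.9% down. Between days 7 and 15 it moved down for 13 of 13, with a median of −2.74, where 15.2% of genes moved down and 16.6% up. Both differences use the day 7 libraries.

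MT-ND6 is the only subunit encoded on the light strand (chrM:14149-14673, minus strand), opposite the transcript of the other subunits. Its ratio to the mean of the other 6 ND genes was 1.84 and 1.79 in wild type on day 3 and lay between 2.31 and 3.27 in the other groups. Day 3 wild type was thus the lowest group. The strand setting of the counting is not known, so reads of MT-ND6 and of the opposite strand cannot be told apart.

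Mitochondrial ribosomal RNAs come from the same transcripts. MT-RNR1 had 1780 and 1715 FPKM against 2571 and 2368 on day 7 (0.50 ± 0.16, limma adjusted p = 0.0315) and MT-RNR2 had 14196 and 13273 FPKM against 15149 and 16650 (0.21 ± 0.23, adjusted p = 0.484). On day 15 MT-RNR2 had 28854 and 27317 FPKM against 10367 and 18766 (−1.01 ± 0.23, limma adjusted p = 0.00621). MT-RNR1 had 2052 and 2195 FPKM against 1975 and 1343 on day 15. The order of both RNAs between genotypes was that of the subunits on both days, though MT-RNR2 did not pass on day 7. Their log2 changes on day 7 were smaller than that of any subunit. How ribosomal RNA was removed is not given. MTATP6P1, a nuclear copy of MT-ATP6, had 146 and 154 FPKM against 489 and 650.0 on day 7, the order that MT-ATP6 has, and reads of near-identical copies may be shared.

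Most nuclear subunits were lower in the knockout-labelled libraries on days 7 and 15. On day 7, 67 of 82 were lower and 2 higher, where 19.9% of genes were lower and 22.1% higher, with a median log2 change of −0.73 against 0.06 over all genes tested. On day 15, 54 were lower and 1 higher, with a median of −0.61 against 0.03, where 16.2% of genes were lower and 18.9% higher. On day 3, 26 were lower and 2 higher, with a median of −0.26 against −0.01, where 14.1% of genes were lower and 9.51% higher. The day 3 count rests on few libraries: leaving out the first or the second wild-type library gave 15 and 14 calls, and leaving out the first knockout-labelled library gave 13.

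Scaled to the sum outside MT genes, 14 were lower and 4 higher on day 3, where 9.42% and 15.6% of genes were. On day 7 the counts were 48 and 3, where 14.5% of genes were lower and 30.9% higher. On day 15 they were 55 and 1, where 16.7% were lower and 20.1% higher. Of the 82, 20 were lower on all 3 days as deposited, where 2.69% of all genes tested were, and 50 on both later days, where 6.34% were. The 8 that passed on no day, as 34.6% of all genes did, were ATP5G2, COX7A1, NDUFA5, NDUFB1, NDUFS1, NDUFV2, NDUFV3 and UQCRHL.

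**Figure D3:**
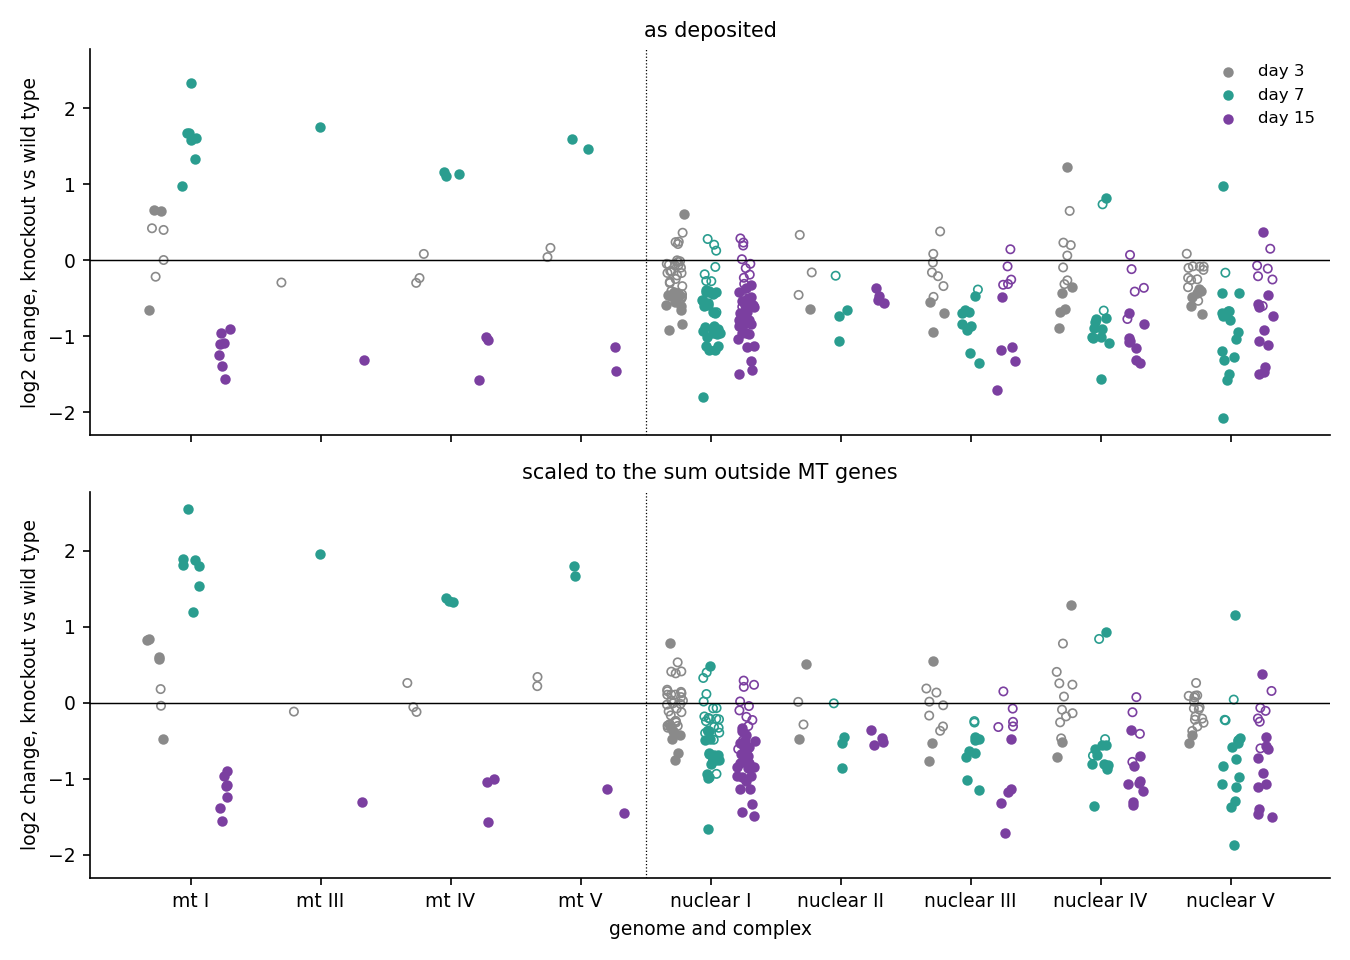
Log2 change between knockout-labelled libraries and wild type for each subunit, by genome, complex and day, as deposited and scaled to the sum outside MT genes. Filled points passed an adjusted p of 0.05 and open points did not. As deposited, mitochondrial subunits lie at 0.98 to 2.34 on day 7 and below 0 on day 15, while most nuclear points lie below 0 on both days.

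In complex I, 30 of 38 nuclear members were lower on day 7, 27 on day 15 and 11 on day 3, and 1 was higher, on day 3. NDUFS8, an iron-sulfur protein of the peripheral arm, had 75.3 and 76.7 FPKM against 37.7 and 41.5 on day 7 and 71.1 and 76.2 FPKM against 41.02 and 38.9 on day 15. Wild type was higher with no overlap, by log2 changes of −0.92 ± 0.10 and −0.87 ± 0.10 (limma adjusted p = 7.02e-05 and 1.53e-04). NDUFS5, an accessory subunit (chr1:39026318-39034636, plus strand), had 337 and 391 FPKM against 175 and 208 on day 3 (−0.92 ± 0.13, limma adjusted p = 7.78e-04). NDUFS4, an accessory subunit whose loss causes complex I deficiency (chr5:53560633-53683340, plus strand), was the only nuclear complex I member higher on day 3, with 30.3 and 30.7 FPKM against 45.9 and 48.1 (0.61 ± 0.11, limma adjusted p = 0.00327). It had the opposite order on day 7, with 58.3 and 59.02 FPKM against 38.7 and 39.1 (−0.58 ± 0.11, adjusted p = 0.00201). That difference between effects was −1.19 ± 0.16 (limma adjusted p = 7.31e-04). Its day 7 change no longer passed with the trend on transcript length removed.

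The 7 nuclear core subunits of complex I hold the flavin and the iron-sulfur clusters. On day 7, 3 of them were lower and none higher (median −0.28), and on day 15, 4 were lower (median −0.42), against medians of −0.59 and −0.62 over all 38. The difference between core and accessory members was not tested. NDUFS1, the largest core subunit, had 30.1 and 32.7 FPKM against 36.9 and 31.8 on day 7 (0.13 ± 0.15, limma adjusted p = 0.529). Its genotypes overlapped.

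NDUFA4 and its hypoxia-inducible relative NDUFA4L2 differed in level and course. NDUFA4 had 53.7 and 53.9 FPKM against 24.4 and 29.9 on day 7 (−0.97 ± 0.27, limma adjusted p = 0.016). Scaled to the sum outside MT genes it did not pass (−0.77, adjusted p = 0.0544). NDUFA4L2 had 6.37 and 4.90 FPKM against 0.715 and 1.09 on that day (−1.80 ± 0.49, limma adjusted p = 0.0132), and on day 15 0.918 and 6.58 FPKM against 3.12 and 3.62. Its day 15 genotypes overlapped, and the wild-type libraries of that day differed widely.

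Complex II has 4 subunits, all nuclear, of which 3 were lower on day 7, 4 on day 15 and 1 (SDHC) on day 3. SDHA, the flavoprotein that oxidises succinate (chr5:218241-256700, plus strand), had 35.04 and 34.9 FPKM in wild type on day 3, 83.7 and 81.6 on day 7 and 69.1 and 79.4 on day 15. Knockout-labelled libraries had 31.1 and 31.2, then 40.5 and 37.6, then 60.4 and 41.2. Wild type was higher without overlap on days 7 and 15, with log2 changes of −1.06 ± 0.16 and −0.56 ± 0.16 (limma adjusted p = 4.70e-04 and 0.019). Pseudogene copies of SDHA may share its reads. Its day 15 change did not pass in a fit on the compared groups only. SDHB, the iron-sulfur subunit, had 22.05 and 17.9 FPKM against 18.6 and 15.8 on day 7 (−0.20 ± 0.17, limma adjusted p = 0.367). SDHC, a membrane anchor, had 92.6 and 94.2 FPKM against 52.5 and 66.9 on day 3 (−0.65 ± 0.15, limma adjusted p = 0.0108). That call was lost with the trend on transcript length removed.

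In complex III, 9 of 10 nuclear members were lower on day 7, 5 on day 15 and 3 on day 3, and none was higher. UQCRQ, whose promoter is printed above (chr5:132866560-132868031, plus strand), had 33.1 and 38.2 FPKM in wild type on day 3, 38.9 and 45.2 on day 7 and 119.8 and 129 on day 15. Knockout-labelled libraries had 15.6 and 20.9, then 28.2 and 23.3, then 35.6 and 39.1. Wild type was higher on each day with no overlap, with log2 changes of −0.94 ± 0.16, −0.69 ± 0.16 and −1.71 ± 0.16 (limma adjusted p = 0.00235, 0.00602 and 4.20e-05). The day 15 value is the largest fall among the 82 on that day. The day 7 change of UQCRQ did not pass once the trend on transcript length was removed. UQCRB, which lines the ubiquinone pocket, had 109 and 105 FPKM against 39.5 and 43.4 on day 7 (−1.35 ± 0.13, limma adjusted p = 2.73e-05).

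UQCRC1, a core protein of complex III (chr3:48599002-48610976, minus strand), fell in wild type from 245 and 255 FPKM on day 7 to 136 and 146 on day 15. Knockout-labelled libraries lay between 111 and 159 on all 3 days. On day 3 UQCRC1 had 221 and 218 FPKM in wild type against 143 and 127. The genotypes were thus apart on day 3 and on day 7 (day 7 log2 change −0.92 ± 0.15, limma adjusted p = 7.58e-04). They overlapped on day 15 (−0.08 ± 0.15, adjusted p = 0.701). CYC1, the cytochrome c1 that passes electrons on, had 127 and 131 FPKM against 68.5 and 72.4 on day 7 (−0.86 ± 0.13, limma adjusted p = 5.27e-04). CYCS, cytochrome c itself, had 67.6 and 59.1 FPKM against 29.1 and 30.8 (−1.05 ± 0.11, limma adjusted p = 5.75e-05). UQCRH and UQCRHL are near-identical copies whose reads cannot be split with certainty.

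In complex IV, 10 of 13 nuclear members were lower and 1 higher on day 7, 8 lower on day 15, and 5 lower and 1 higher on day 3. COX6B1, which faces the intermembrane space (chr19:35648223-35658861, plus strand), had 178 and 206 FPKM against 58.5 and 70.1 on day 7 and 217 and 218 FPKM against 86.8 and 83.3 on day 15. Wild type was higher without overlap, with log2 changes of −1.57 ± 0.15 and −1.35 ± 0.15 (limma adjusted p = 3.19e-05 and 1.11e-04). COX6B2, its testis isoform, was the member that was higher, at a low level, with 0.408 and 0.618 FPKM against 3.18 and 1.96 on day 3 (1.22 ± 0.20, limma adjusted p = 0.00199) and 0.695 and 0.594 FPKM against 1.63 and 2.19 on day 7 (0.82 ± 0.20, adjusted p = 0.00848). It gave at most 4.62% of the summed FPKM of both isoforms in any library.

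COX7A1, the heart and muscle isoform, passed in no genotype comparison and gave at most 5.89% of the sum of COX7A1 and COX7A2 in any library. It rose in wild type from 0.150 and 1.23 FPKM on day 7 to 2.74 and 5.72 on day 15 (1.65 ± 0.47, limma adjusted p = 0.0136). COX7A2, the general isoform, had 76.4 and 77.3 FPKM against 36.01 and 39.5 on day 7 (−1.01 ± 0.15, limma adjusted p = 4.59e-04). The muscle isoform was thus a minor part of the pair even on day 15. COX4I1, needed early in the assembly of the complex, had 548 and 569 FPKM against 355 and 306 on day 7 (−0.76 ± 0.14, limma adjusted p = 0.002). COX6A1, the general isoform of subunit VIa, had 401 and 447 FPKM against 202 and 197 (−1.08 ± 0.13, limma adjusted p = 1.29e-04). COX8A, a small subunit, had 187 and 199 FPKM against 95.2 and 113 (−0.89 ± 0.11, limma adjusted p = 1.74e-04). In each of these genes wild type was higher on day 7 without overlap.

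In ATP synthase, 15 of 17 nuclear members were lower and 1 higher on day 7, 10 lower and 1 higher on day 15, and 6 lower on day 3. Its membrane ring is built of the c subunit, whose mature protein is the same from ATP5G1, ATP5G2 and ATP5G3. ATP5G1 (now ATP5MC1, chr17:48892765-48895871, plus strand) had 26.7 and 31.4 FPKM in wild type on day 3, 76.7 and 92.3 on day 7 and 106 and 115 on day 15. Knockout-labelled libraries had 25.9 and 27.99, then 20.7 and 17.9, then 42.5 and 36.6. Genotypes overlapped on day 3 and stood apart afterwards. The log2 change of −2.07 ± 0.14 on day 7 (limma adjusted p = 4.88e-06) was the largest fall among the 82 on that day, and on day 15 it was −1.46 ± 0.14 (adjusted p = 5.05e-05).

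ATP5G2 passed on no day, with 232 and 234 FPKM against 209 and 207 on day 7 (−0.16 ± 0.09, limma adjusted p = 0.169). ATP5G3 had 227 and 229 FPKM against 68.5 and 93.3 (−1.498 ± 0.16, limma adjusted p = 6.79e-05). Summed over the 3 genes, c subunit FPKM was 536 and 555 in wild type and 298 and 318 in knockout-labelled libraries on day 7. The mix differed as well as the sum. ATP5G1 gave 14.3% and 16.6% of it in wild type against 6.95% and 5.62% on day 7, and 18.3% and 19.4% against 11.02% and 8.90% on day 15. ATP5G2 gave 43.3% and 42.2% against 70.1% and 65.05% on day 7. On day 3 the share of ATP5G1 lay between 7.72% and 9.21% in all 4 libraries, with the genotypes overlapping. No scaling of a library alters these shares, and no test was run on them.

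The catalytic head holds alpha (ATP5A1) and beta (ATP5B) subunits in equal number. ATP5A1 (chr18:46080248-46104334, minus strand) had 285 and 310.0 FPKM in wild type on day 3, 590.1 and 593 on day 7 and 236 and 236 on day 15. Knockout-labelled libraries lay between 247 and 288 over all 3 days. Wild type was far above on day 7 (−1.19 ± 0.10, limma adjusted p = 1.30e-05), and on day 15 the change was 0.15 ± 0.10 (adjusted p = 0.247). ATP5B (chr12:56638175-56646068, minus strand) had 569 and 559 FPKM against 378 and 334 on day 7 (−0.67 ± 0.12, limma adjusted p = 0.0013). On day 15 its order was the opposite, 299 and 339 FPKM against 452 and 377, and it was the only nuclear member higher on that day (0.37 ± 0.12, adjusted p = 0.0305). This rise did not pass in a fit on the compared groups only. The ratio of ATP5A1 to ATP5B was 0.489 and 0.549 in wild type on day 3, then 1.04 and 1.06, then 0.790 and 0.696, and lay between 0.602 and 0.738 in the knockout-labelled libraries.

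ATP5D, the delta subunit of the central stalk, had 67.2 and 70.3 FPKM against 28.3 and 26.05 on day 7 (−1.31 ± 0.11, limma adjusted p = 1.98e-05) and was lower on all 3 days. ATP5J2, a small membrane subunit, had 577 and 601 FPKM against 202 and 246 on day 15 (−1.40 ± 0.13, limma adjusted p = 4.75e-05). ATP5S (now DMAC2L) was the only nuclear complex V member higher on day 7, with 3.60 and 3.70 FPKM against 6.995 and 9.45 (0.98 ± 0.22, limma adjusted p = 0.00562).

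**Figure D4:**
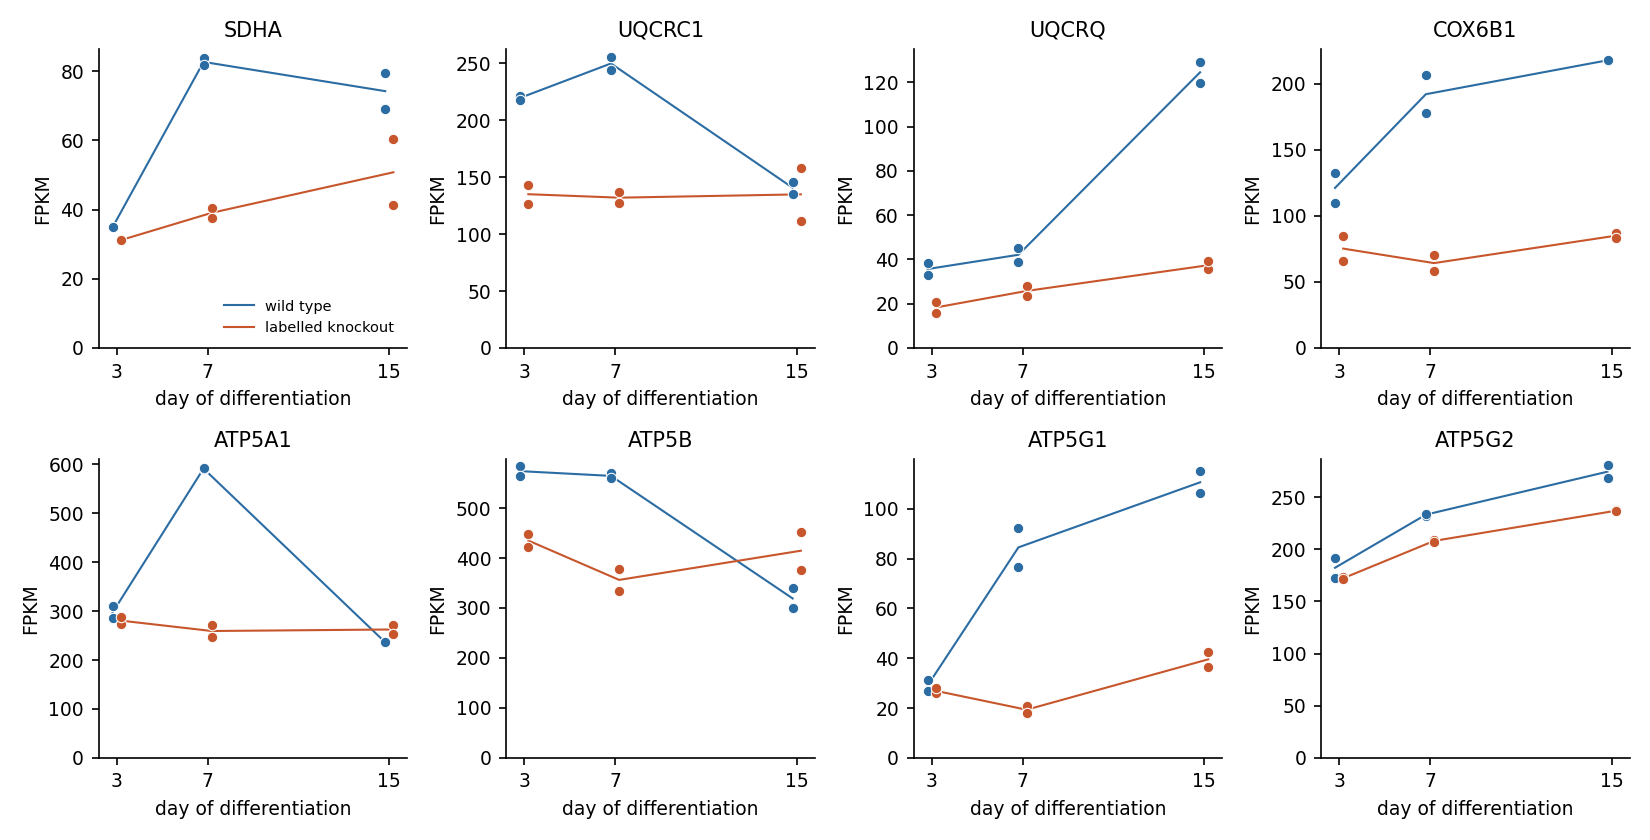
FPKM of 8 nuclear subunits by day of differentiation, each point 1 library, with lines joining group means. ATP5A1 has a wild-type peak on day 7 (590.1 and 593) that the knockout-labelled libraries lack, and ATP5G1 is apart on days 7 and 15.

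Over time in wild type, 32 nuclear subunits rose and 2 fell from day 3 to day 7, where 21.1% of genes rose and 22.6% fell. COX7B, a small complex IV subunit, rose most, from 3.23 and 2.52 to 8.67 and 12.1 FPKM (1.54 ± 0.37). ATP5G1 rose by 1.51 ± 0.14, and ATP5S and NDUFS1 fell (−1.503 ± 0.22 and −0.58 ± 0.15). From day 7 to day 15, 34 rose and 10 fell, where 25.5% of genes rose and 26.8% fell. Scaled to the sum outside MT genes, 48 rose and 6 fell in this step, where 32.2% of genes rose and 21.4% fell. ATP5E, the epsilon subunit of the central stalk, rose most, from 5.57 and 5.63 to 22.8 and 18.3 FPKM (1.70 ± 0.23), and ATP5A1 fell most (−1.32 ± 0.10). In all, 17 nuclear members rose in both steps, as did 3.8% of all genes tested.

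From day 3 to day 7 in knockout-labelled libraries, 5 nuclear members rose and 10 fell, where 17.3% of genes rose and 11.4% fell. Without replicate 1 or replicate 2 of the day 3 group, 9 passed in place of 15. NDUFA4L2 fell most, from 6.94 and 9.39 to 0.715 and 1.09 FPKM (−2.26 ± 0.49), and NDUFC1 rose most, from 5.25 and 6.93 to 8.63 and 11.2 (0.62 ± 0.20). NDUFC2, like NDUFC1 a small accessory subunit of complex I, rose by 0.62 ± 0.11, and COX5A, which binds COX4I1 early in assembly of complex IV, fell (−0.81 ± 0.12). From day 7 to day 15, 31 rose and 2 fell, where 13.3% of genes rose and 15.1% fell. ATP5E and the complex I accessory subunit NDUFB3 rose most (1.76 ± 0.23 and 1.24 ± 0.29), and COX6B2 fell (−1.41 ± 0.20). Here 18 passed without replicate 1 of the day 7 group and 21 without replicate 2 of the day 15 group, in place of 33. A fit on only these groups called 11.

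The genotype effect on nuclear members moved down between days 3 and 7 for 27 and up for 1 (ATP5S), where 8.9% of genes moved down and 11.3% up. ATP5G1 moved most (−1.97 ± 0.20, limma adjusted p = 1.56e-04). The 28 calls became 17 without replicate 1 of wild type on day 3, 15 without replicate 2 of that group, and 17 without replicate 2 of the knockout-labelled day 3 group. They became 15 and 14 without replicate 1 and replicate 2 of wild type on day 7, and 17 without replicate 1 of the knockout-labelled day 7 group. Between days 7 and 15 the effect moved up for 10 and down for 6 as deposited, where 16.6% of genes moved up and 15.2% down. Scaled to the sum outside MT genes it moved up for 6 and down for 9, where 12.9% and 21.2% of genes did, so the balance turns with the scaling. Those 16 calls became 8 without replicate 1 of wild type on day 7 and 10 without either wild-type library of day 15.

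Most nuclear subunit transcripts are short, and the day 15 difference went with length. Of the 52 with an annotated transcript under 1000 bases, 44 were lower on day 15 (median −0.81). Of the 30 from 1000 bases on, 10 were lower and 1 higher (median −0.25). Over all genes tested with an annotated length, 367 of 1040 under 1000 bases and 1932 of 12512 longer ones were lower, with medians of −0.31 and 0.07. On day 7 the subunits were low in both classes, with 45 of 52 lower (median −0.78) and 22 of 30 (median −0.67), where 425 of the 1040 and 2667 of the 12512 genes were lower. From day 7 to day 15 in wild type, 30 of the 52 rose and none fell, while of the 30, 4 rose and 10 fell. In that step 292 of the 1040 short genes rose and 230 fell, and of the 12512 longer ones 2912 rose and 3842 fell.

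The number of bases that had to be taken off gene lengths was 210 and 200 in wild type on day 15, 270 and 210 in the knockout-labelled libraries of that day, and 240 to 280 in the others. Its part in the day 15 result was not tested directly. NDUFA1, a short complex I subunit, had 64.8 and 76.4 FPKM in wild type on day 15, 16.6 in the knockout-labelled library with 270 bases and 35.7 in that with 210. Short members did not all share that order. COX6A1 had 249 FPKM in the library with 270 bases and 198 in that with 210, and COX6B1 had 86.8 and 83.3. These genes are picked examples and do not show how many short members had either order. The trend on length was also taken out of each library, a step chosen after seeing the data. Then 11 nuclear members were lower and 5 higher on day 3, against 26 and 2 in the main fit. The counts were 42 lower and 2 higher on day 7, and 42 and 1 on day 15. Shares of all genes under this setting are not given here.

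**Figure D5:**
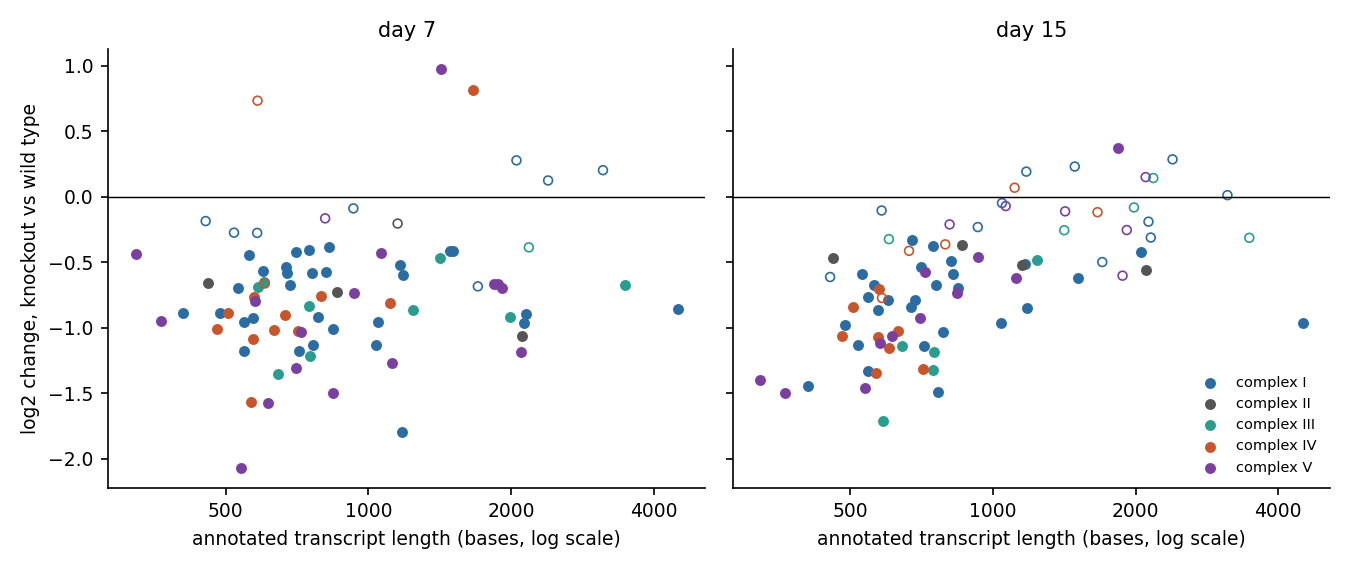
Log2 change between knockout-labelled libraries and wild type for the 82 nuclear subunits against annotated transcript length (log scale), on day 7 and day 15. Filled points passed an adjusted p of 0.05. On day 15 longer transcripts lie nearer 0 (median −0.25 from 1000 bases on), and on day 7 they lie about as low as the shorter ones (−0.67 against −0.78).

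Other genes of the pathway were taken from 4 lists. Their counts are to be read against all genes tested, of which 9.51% were higher and 14.1% lower on day 3, 22.1% and 19.9% on day 7, and 18.9% and 16.2% on day 15. Of 53 assembly factors, 5 were higher and 6 lower on day 3, 10 and 13 on day 7, and 6 and 14 on day 15, with medians of −0.13, −0.05 and −0.19. The shares of assembly factors higher and lower on days 3 and 7 were near those of all genes. NDUFAF3, which acts early in complex I assembly, had 23.2 and 20.95 FPKM against 8.99 and 7.54 on day 7 (−1.32 ± 0.18, limma adjusted p = 2.62e-04). ACAD9, another complex I assembly factor, had 10.4 and 11.6 FPKM against 20.4 and 23.9 (0.95 ± 0.16, limma adjusted p = 0.00118). Assembly factors for a complex thus differed in direction on the same day. SCO2, a copper carrier for complex IV, had 19.9 and 21.8 FPKM against 7.97 and 8.09 on day 15 (−1.27 ± 0.16, limma adjusted p = 2.26e-04). On day 3, ATPAF1 and NDUFAF7, which serve ATP synthase and complex I, were higher (0.75 ± 0.12 and 0.99 ± 0.21), and COA3 and COA6, which serve complex IV, were lower (−0.54 ± 0.10 and −0.85 ± 0.19), of which COA3 did not pass with the trend on transcript length removed. NDUFAF6, for complex I, was higher on day 7 (1.07 ± 0.16) and HIGD1A, a respirasome factor, lower (−1.20 ± 0.16). On day 15 TTC19 and NUBPL, for complexes III and I, were higher (0.93 ± 0.12 and 1.78 ± 0.30) and ECSIT, for complex I, was lower (−1.40 ± 0.17).

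Of 28 measured genes that maintain or transcribe mitochondrial DNA or handle its RNA, 6 were higher and none lower on day 3, 6 and 1 on day 7, and 3 and 7 on day 15. The share higher on day 7 was near the 22.1% of all genes tested. POLG2, the accessory subunit of the mitochondrial DNA polymerase, had 9.18 and 6.59 FPKM against 20.04 and 20.01 on day 7 (1.26 ± 0.16, limma adjusted p = 1.80e-04). TOP1MT, the mitochondrial topoisomerase, had 18.6 and 16.7 FPKM against 27.1 and 30.1 (0.66 ± 0.12, limma adjusted p = 0.0014). TOP1MT was higher on day 15 too (13.9 and 12.6 FPKM against 26.2 and 23.9, 0.87 ± 0.12, limma adjusted p = 3.94e-04), and on day 3 (0.38 ± 0.12, adjusted p = 0.0407). POLG2 was also higher on day 3 (0.86 ± 0.16, limma adjusted p = 0.00358). LRPPRC, which stabilises mitochondrial mRNA, had 19.7 and 16.4 FPKM against 30.2 and 39.96 on day 15 (0.91 ± 0.15, limma adjusted p = 9.77e-04). FASTK, a mitochondrial RNA-binding protein, had 51.2 and 57.97 FPKM against 24.3 and 20.5 (−1.25 ± 0.13, limma adjusted p = 8.85e-05). SLIRP, the partner of LRPPRC, was the only one lower on day 7 (66.4 and 90.6 FPKM against 54.7 and 50.7, −0.55 ± 0.18, limma adjusted p = 0.0317). Scaled to the sum outside MT genes it did not pass (−0.35, adjusted p = 0.155). SUPV3L1, a helicase of mitochondrial RNA decay, was lower on day 15 (−0.80 ± 0.13), and FASTKD1, of the FASTK family, was higher on day 3 (1.19 ± 0.19).

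Of 15 measured regulators of mitochondrial biogenesis, 2 were higher and 1 lower on day 3, 3 and 4 on day 7, and none and 2 on day 15. With a list this short these shares are near those of all genes on days 3 and 7. PPARGC1A, the coactivator PGC-1 alpha, had 10.1 and 12.2 FPKM against 4.60 and 5.15 on day 7 (−1.04 ± 0.20, limma adjusted p = 0.00216). ESRRG, a nuclear receptor that acts with it in heart, had 6.14 and 5.97 FPKM against 1.34 and 1.22 (−1.63 ± 0.19, limma adjusted p = 1.21e-04). PPRC1, a relative of PPARGC1A, was higher on day 7 (8.32 and 8.73 FPKM against 16.4 and 16.5, 0.87 ± 0.14, limma adjusted p = 8.19e-04) and lower on day 15 (15.3 and 15.3 FPKM against 10.1 and 7.75, −0.72 ± 0.14, adjusted p = 0.00325). On day 3 PPARGC1B, a paralog of PPARGC1A, and the deacetylase SIRT1 were higher (0.88 ± 0.17 and 0.61 ± 0.16). GABPB1, the partner of GABPA, was higher on day 7 (0.63 ± 0.13), and ESRRA, a receptor related to ESRRG, was lower on day 15 (−0.53 ± 0.13), though not in a fit on the compared groups only. Of 7 electron carriers and members outside the rule, 5 were lower on day 7 and 6 on day 15, with none higher on those days. Among all genes tested, 19.9% were lower on day 7 and 16.2% on day 15. ETFB, part of the flavoprotein that takes electrons from fatty acid oxidation, had 57.4 and 66.1 FPKM against 24.6 and 21.3 on day 7 (−1.39 ± 0.13, limma adjusted p = 2.56e-05). COQ10A, a ubiquinone-binding protein, was higher on day 3 (0.48 ± 0.14) and its relative COQ10B lower on day 15 (−1.003 ± 0.21).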

How the data were processed

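Trizol RNA of 12 H7 libraries was sequenced, with 1 file per library and replicates not pooled. Each deposited file lists 1 FPKM value per symbol, and this unit was inferred from the values. Per the submitters' processing notes BWA and hg38 (GRCh38) were used. For the quantifier, annotation, strand setting and handling of multi-mapped reads: not given in the sources used here. Low values pointed to 7630000 to 13420000 fragments per library. These depths are estimates, so no counting intervals were drawn and no count model was run.

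Groups follow the sample titles. The test was limma 3.58.1 (R 4.3.3) with trend on log2(FPKM + 1), for the 16295 genes that reached 1 FPKM in 2 or more libraries (801 did not). All 95 subunits passed this filter. A model of 6 group means over 12 libraries (6 residual degrees of freedom) gave 9 two-sided contrasts, with Benjamini-Hochberg adjustment across the 16295 genes and a threshold of 0.05. The same fit was run on values scaled to the sum outside MT genes and under other alternatives, and the code was tested on simulated data. Positions are GENCODE release 29 on GRCh38, 1-based, where 17 members have newer names. Promoters are from RefSeq (GRCh38.p14).

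Members, gene lists and tests were chosen with earlier results of these data known. Named are the mitochondrial subunits, set isoforms and core proteins, the smallest adjusted p per complex, direction and genotype comparison, the largest changes between days, and up to 2 genes per direction of each related list. ATP5C1, COX5B, NDUFA8, NDUFA1, the ribosomal RNAs, MTATP6P1 and TCF3 fall outside this rule and were chosen after their values were seen. The results of 1 item that the rule names are not reported here.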

Additional observations from a re-analysis of the deposited data

Results flagged for a closer look

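The genotype effect, the log2 change between libraries labelled knockout and wild type, differed between days by limma's test of that difference. Values below are the later effect less the earlier. From day 3 to day 7 it moved up for MT-CYB (2.04), MT-ND4L (1.92), MT-ND1 (1.89), MT-ND3 (1.64), MT-ND2 (1.58), MT-ATP8 (1.55), MT-CO3 (1.43), MT-CO2 (1.40), MT-ATP6 (1.30), MT-CO1 (1.03), MT-ND5 (1.01), MT-ND6 (0.96) and MT-ND4 (0.94). Among the named nuclear subunits it moved over those days for ATP5S (1.51), NDUFS8 (−0.51), ATP5D (−0.60), COX5A (−0.67), CYC1 (−0.70), COX7A2 (−0.74), UQCRB (−0.81), COX6B1 (−0.88), SDHA (−0.90), ATP5A1 (−1.10), ATP5G3 (−1.14), NDUFS4 (−1.19) and ATP5G1 (−1.97).

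From day 7 to day 15 the effect moved down for MT-CO1 (−2.12), MT-CO3 (−2.19), MT-ND3 (−2.22), MT-ND4 (−2.42), MT-ND6 (−2.51), MT-ND5 (−2.63), MT-ATP8 (−2.74), MT-CO2 (−2.74), MT-ATP6 (−2.91), MT-CYB (−3.06), MT-ND1 (−3.07), MT-ND2 (−3.14) and MT-ND4L (−3.44). Among the named nuclear subunits it moved for NDUFA4L2 (1.99), ATP5A1 (1.34), ATP5B (1.04), UQCRC1 (0.84), ATP5G3 (0.76), ATP5G1 (0.61), COX6B2 (−0.93), ATP5J2 (−0.96), UQCRQ (−1.02) and ATP5S (−1.09). Both sets of differences use the day 7 libraries, so they are not independent of each other, and summed cardiomyocyte markers also differ between genotypes at that day (6082 and 6079 against 1154 and 1005 FPKM). The part of those markers in these differences was not tested.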

How the results depend on the processing

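Scaling to the sum outside MT genes gave 18 nuclear calls on day 3 in place of 28 and 5 mitochondrial in place of 3. It turned the balance of the nuclear change in genotype effect from day 7 to day 15 (15 calls, 6 up and 9 down, in place of 16, 10 up and 6 down). Removal of the length trend, chosen after seeing the data, gave 16 nuclear calls on day 3, 44 on day 7 in place of 69, and 21 in knockout-labelled libraries from day 7 to day 15 in place of 33. It left 11 mitochondrial calls on day 15 (MT-ATP8 and MT-ND4L were lost), and reversed the day 7 log2 changes of COA3 (0.060, adjusted p = 0.657) and ATP5J2 (0.12, adjusted p = 0.372). A fit on the compared groups only gave 52 nuclear calls in wild type from day 3 to day 7 in place of 34. In knockout-labelled libraries from day 7 to day 15 it gave 11 nuclear calls in place of 33 and 4 mitochondrial in place of 10. The cause of these shifts was not tested, though the last fit has fewer libraries.

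Leaving out each library in turn, where the lone library of a group is assumed to vary like the others, gave 13 to 21 nuclear calls on day 3, 47 to 60 on day 7 and 43 to 55 on day 15. It gave 23 to 26 and 31 to 34 for the steps in wild type, 9 to 11 and 18 to 36 for those in knockout-labelled libraries, and 14 to 20 and 8 to 24 for the changes of genotype effect. Mitochondrial calls numbered 2 on day 3, 13 in the later genotype comparisons, and 6 to 10 for the later step in knockout-labelled libraries. Same-numbered libraries of the genotypes did not deviate together within a day (r = 0.037, 0.024 and −0.12 on days 3, 7 and 15). Those of the knockout-labelled groups did so weakly between days (r = 0.155 for days 3 and 7, 0.103 for days 3 and 15 and 0.206 for days 7 and 15), and no label pairs them. With a replicate block there were 30, 68 and 56 nuclear calls on days 3, 7 and 15, 14 and 36 for the steps in knockout-labelled libraries, with 11 mitochondrial calls in the later step, and no count of subunits moved by over 1.5 times. Low and short genes are the least certain, with 2 libraries per group.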
